A study of Triticum aestivum and Zea mays with 29 samples.

Results

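Zm-TS3 is the LbCas12a target in the maize gene small kernel 1 (Zm00001d007100). It was 1 of 12 endogenous targets named in the deposited tables, 6 in maize and 6 in wheat, and is covered by both maize base editing tables, for adenine base editors (ABEs) and for cytosine base editors (CBEs). Every value listed for it in these tables was taken. The tables list 3 of its adenines, out of 12 adenines over 4 maize targets, and 6 of its cytosines, out of 26 cytosines over 4 maize targets. Leaf protoplasts, cells without walls, were prepared from etiolated B104 maize seedlings, transfected with an editor and with crRNAs for 4 targets together, and sorted for GFP 2 days later. The target was then amplified and sequenced, and conversion was given as percent of aligned reads, with 3 replicate columns per arm. The study describes its replicates as biologically independent.

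The C-to-T table held 2 CBEs and a control, in columns numbered 1 to 3. Columns 1 and 2 were read as the first and the second editor of the header, and the names CBE5 and CBE6 were carried over from a wheat table that numbers the same plasmids, so the linker given for each CBE rests on these keys. CBE6 carries the deaminase A3A joined by a 6xGGGGS linker to LbCas12a(D156R-D832A), with the inhibitor UGI. CBE5 is the same editor with an XTEN linker. Both were delivered with tRNA-processed crRNAs for Zm-TS3 and for the targets Zm-TS4, Zm-TS9 and Zm-TS10, and the third arm, for which the header lists no editor, was taken as the control. The A-to-G table covers Zm-TS3, Zm-TS1, Zm-TS4 and Zm-TS8. Its header names 4 ABEs, with TadA8e on LbCas12a(D832A), TadA8e on LbCas12a(D156R-D832A), TadA9 on LbCas12a(D156R-D832A), and TadA9 with a 6xGGGGS linker on LbCas12a(D156R-D832A), and 2 crRNA systems, tRNA-mature direct repeat and HH-HDV ribozyme. The columns are numbered 1 to 7 with no key to these components, so the arms are given by number and not by architecture. All editors were driven by the maize ubiquitin promoter and carried GFP on the same transcript, so that only cells that expressed the construct were sorted.

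LbCas12a binds a target next to a T-rich PAM and opens the DNA duplex, and the D832A change removes its cutting. A tethered deaminase can then act on the exposed strand. TadA turns adenine into inosine, which is read as G, and A3A turns cytosine into uracil, which is read as T, while UGI keeps uracil from being removed. A3A is known for a preference for cytosines that follow T, and TadA for adenines that follow T. small kernel 1 encodes a pentatricopeptide repeat protein that acts in the editing of a mitochondrial transcript, and its loss gives small kernels.

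The sequences of the target are shown because the results turn on the order of its bases. In the first line capitals mark the 23-base spacer after the PAM TTTC. In the second, capitals mark every adenine and cytosine of the spacer, and positions are counted from 1 at its PAM-adjacent end.

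Zm-TS3 PAM and spacer: tttcGGAAGGCGCAGATCGAGTCCGCG

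Zm-TS3 spacer, A and C: ggAAggCgCAgAtCgAgtCCgCg

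Zm-TS3 amplicon, spacer in capitals: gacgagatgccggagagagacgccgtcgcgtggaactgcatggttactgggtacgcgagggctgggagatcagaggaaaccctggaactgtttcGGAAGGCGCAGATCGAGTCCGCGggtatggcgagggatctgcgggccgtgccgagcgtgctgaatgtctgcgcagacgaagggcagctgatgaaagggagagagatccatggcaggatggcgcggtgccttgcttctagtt

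The amplicon was 235 bases long and the spacer took bases 95 to 117 of it. The position of the amplicon in the maize genome and its place in the gene model were not analysed here. The spacer holds 5 adenines, of which A10, A12 and A16 are listed and A3 and A4 are not. It holds 6 cytosines, C7, C9, C14, C19, C20 and C22, all of them listed. C14 and C19 follow T, C20 follows C, and C7, C9 and C22 follow G. A10 follows C, and A12 and A16 follow G, so none of the listed adenines follows T. Its GC content of 69.6% was the highest of the 6 maize spacers, which are shown with A and C in capitals because positions are compared between them.

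Zm-TS1: ACACgggAAAttACAgCAggAgA

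Zm-TS4: tCgtACgtACgtACCAtgCAtgC

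Zm-TS8: CAtAgCACtAgCACCtgCttttg

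Zm-TS9: CCAACCAtCtCAgAgAACAtgtC

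Zm-TS10: tCtggCCtCCtACAtCgtACAgC

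With the CBEs, C-to-T conversion at Zm-TS3 lay above the control at every cytosine. It reached about the same level at C7, C9 and C14, was lower at C19 and C20, and was lowest at C22. At C7 it was 8.47, 10.16 and 9.36% in the CBE6 columns and 12.46, 11.73 and 6.43% in the CBE5 columns, and the 3 control columns were listed at 0. Every CBE column was thus above every control column. At C9, CBE6 gave 8.47, 10.46 and 9.36%, CBE5 gave 12.46, 11.73 and 6.43%, and the control gave 0.22% in 1 column and 0 in the other two. C14 carried the same values as C7 in all 6 CBE columns and was listed at 0 in the control.

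Further from the PAM the values were lower. At C19, CBE6 gave 6.21, 7.75 and 7.22% and CBE5 gave 8.81, 7.42 and 4.32%, with the control listed at 0. At C20, which lies next to it, CBE6 gave 6.04, 6.58 and 7.82% and CBE5 gave 7.83, 7.05 and 4.32%, with the control again at 0. C22 was the only cytosine of the target near the control, with 1.46, 0.73 and 1.31% in CBE6, 1.57, 1.32 and 0.83% in CBE5, and 0, 0.55 and 0% in the control. Its lowest CBE column, replicate 2 of CBE6, stood 0.73 against 0.55% in the highest control column.

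Set against the control by exact permutation of 6 CBE and 3 control columns, all 6 cytosines of Zm-TS3 were higher in the CBEs (adjusted p = 0.0413 at each, over 26 cytosines). The background in this comparison was 57.7%, or 15 of 26 maize cytosines. The mean difference was 9.77 points at C7 and C14, 9.75 at C9, 6.96 at C19, 6.61 at C20 and 1.02 at C22. A raw p of 0.0238 is the smallest that this design allows, and it was reached at each of the 6. With either CBE alone against the control the smallest p is 0.1, so no cytosine could be called for 1 editor.

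The order of the cytosines was tested over the 6 CBE columns by exact sign permutation, and 11 of 15 pairs differed (adjusted p = 0.0426 for each). C7, C9 and C14 each exceeded C19, C20 and C22 in 6 of 6 columns, and C19 and C20 each exceeded C22 in 6 of 6. Because C7, C9 and C14 carried nearly equal values, their pairs with C19, C20 and C22 largely repeat each other and are not separate evidence. C7 exceeded C19 by 2.81 points and C20 by 3.16 points on average, and C22 by 8.57 points. The pairs that did not pass were C7 with C9, C7 with C14, C9 with C14, and C19 with C20, the last of which differed by 0.35 points on average (adjusted exact permutation p = 0.391, C19 higher in 4 of 6 columns). Relative to the most edited cytosine of the same column, C19 stood at 70.9 ± 5.04%, C20 at 68.0 ± 8.58% and C22 at 12.5 ± 3.37% (mean ± SD, n = 6 columns).

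C7, C9 and C14 were equal to within 0.005 points in 5 of 6 CBE columns. The exception was replicate 2 of CBE6, with 10.46% at C9 and 10.16% at both C7 and C14. C19 and C20 were equal in 1 column of 6, replicate 3 of CBE5. Equal values at neighbouring cytosines also occurred at the other targets, where the 2 most edited cytosines matched in 5 of 6 columns at Zm-TS4 and in 6 of 6 at Zm-TS9 and Zm-TS10. The table holds no alleles, so whether the same reads carried the conversions was not tested. The smallest value above 0 was 0.2% in both tables, and 16 of the 54 values for Zm-TS3 in the C-to-T table were listed at 0, all of them control columns.

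By the base before the cytosine, C7 and C9, which follow G, had about the same values as C14, which follows T. C20, which follows C, was 0.35 points lower on average than C19, which follows T. Over the 26 maize cytosines, the median of the position means was 6.70% after A, 3.30% after T, 1.50% after C and 1.20% after G. C9 of Zm-TS3 was the highest of the 7 cytosines that follow G, at 9.82%. These are descriptions over positions that share libraries and spacers. Within a spacer the preceding base cannot be told apart from position, and its effect was not tested.

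The linker of the CBE made no difference that these columns could resolve at Zm-TS3. Averaged over the 6 cytosines, conversion was 7.19 ± 0.591% with CBE6 and 7.52 ± 2.39% with CBE5 (mean ± SD, n = 3 columns each). CBE6 minus CBE5 was -0.33 points, with a 95% interval of -4.28 to 3.62 points (exact permutation p = 0.9, where 0.1 is the smallest possible). The interval holds differences in either direction of more than 3 points, so equal action was not shown. At C7 and C14 the difference was -0.88 points, at C9 -0.78, at C19 0.21, at C20 0.41 and at C22 -0.07, with exact p between 0.7 and 0.9.

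The spread within CBE5 was larger than within CBE6. The column means over the cytosines were 6.52, 7.64 and 7.41% in CBE6, and 9.27, 8.50 and 4.79% in CBE5. Replicate 3 of CBE5 was the lowest of the 6 CBE columns at C7, C9, C14, C19 and C20. At C10 of Zm-TS4, listed in the same columns, replicate 3 of CBE5 was instead the highest of the 6, with 18.13%. Without replicate 3 of CBE5, a choice made after seeing the data, CBE6 minus CBE5 at Zm-TS3 was -1.69 points (exact permutation p = 0.2, the smallest possible with 3 columns against 2).

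The relative levels along the spacer were compared between the linkers as well. As percent of the most edited cytosine, C19 stood at 73.3, 74.1 and 77.1% with CBE6 and at 70.7, 63.3 and 67.2% with CBE5. The 2 sets of columns did not overlap, their means differed by 7.80 points, and the exact permutation p was 0.1, the smallest possible. C20 stood at 71.3, 62.9 and 83.5% with CBE6 and at 62.8, 60.1 and 67.2% with CBE5, sets which overlapped. C22 stood at 12.7 ± 5.24% with CBE6 and at 12.3 ± 0.880% with CBE5 (mean ± SD, n = 3 columns each). These ratios were chosen after seeing the data.

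With the ABEs, A-to-G conversion was highest at A10, lower at A12 and lowest at A16, and was found mainly in arms 4, 5 and 6. At A10 the replicates gave 2.99, 4.04 and 3.80% in arm 4, 16.38, 10.68 and 9.57% in arm 5, and 19.75, 20.71 and 19.63% in arm 6. These 3 arms did not overlap, and arm 6 held the highest A-to-G value of all 4 maize targets in the table. Arm 2 gave 0.36% in 1 column and arm 3 gave 0.44 and 0.84% in 2 columns, with the rest of these arms listed at 0. Arms 1 and 7 were listed at 0 throughout, and arm 7 was at 0 at every adenine of the other targets as well.

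At A12 the values were 0.21, 0.29 and 0.30% in arm 4, 3.88, 2.81 and 1.09% in arm 5, and 8.87, 10.33 and 8.91% in arm 6. Again the 3 arms did not overlap, and every column of arms 1, 2, 3 and 7 was listed at 0. At A16 only 5 of 21 columns were above 0. They were 0.41 and 0.23% in replicates 1 and 2 of arm 5, and 0.92, 1.40 and 1.51% in arm 6.

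Conversion differed between the arms at all 3 listed adenines of Zm-TS3, by permutation of the Kruskal-Wallis statistic. The adjusted p over 12 adenines was 2.67e-05 at A10, 1.71e-05 at A12 and 0.000829 at A16, and the background was 91.7%, or 11 of 12 maize adenines. At A16 the call was lost without replicate 1 (adjusted permutation p = 0.0754) and without replicate 2 (adjusted permutation p = 0.0823). At A10 the mean was 20.03 ± 0.592% in arm 6, 12.21% in arm 5 and 3.61% in arm 4, so that arm 6 stood 1.64 times above arm 5 and 5.55 times above arm 4. At A12 the mean was 9.37% in arm 6, 2.59% in arm 5 and 0.267% in arm 4, and arm 6 stood 3.61 times above arm 5. A single pair of arms has 3 columns against 3, and its smallest exact p is 0.1, which was reached between arms 6 and 5, and between arms 5 and 4, at both A10 and A12.

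The 3 adenines kept 1 order in each arm where they were above 0. Over the means of the 7 arms, A10 exceeded A12 by 3.45 points and A16 by 4.99 points on average, in 5 of 7 arms with the other two tied at 0 (adjusted exact sign permutation p = 0.0938 for each). A12 exceeded A16 by 1.53 points (adjusted exact permutation p = 0.25, higher in 3 arms and tied at 0 in the rest). Arms listed at 0 at both positions add nothing to this test. That leaves 0.0625 as the smallest raw p for A10 against A12 or A16, and 0.25 for A12 against A16. Each of these was reached, so no pair could pass over the arm means. Over the 21 columns as units, added after seeing the data, all 3 pairs passed (adjusted exact permutation p = 0.000732, 0.000732 and 0.00391), with A10 above A12 in 12 columns and below it in none.

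A12 as a share of A10 was lowest in arm 4 and highest in arm 6. A12 as percent of A10 was 7.02, 7.18 and 7.89% in arm 4, 23.7, 26.3 and 11.4% in arm 5, and 44.9, 49.9 and 45.4% in arm 6. None of the 3 arms overlapped with another. The difference in this ratio was 26.3 points for arm 6 against arm 5, and 13.1 points for arm 5 against arm 4 (exact permutation p = 0.1 each, the smallest possible). A16 as percent of A10 was 4.66, 6.76 and 7.69% in arm 6 and 2.50, 2.15 and 0% in arm 5. In arm 4 the A12 values, 0.21 to 0.30%, lay near the smallest A-to-G value listed above 0, which was 0.2%. The ratio in arm 4 is therefore uncertain, as is the 0% for A16 in arm 5. The ratios were chosen after seeing the values.

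The listed bases of both kinds lie along the spacer in the order C7, C9, A10, A12, C14, A16, C19, C20 and C22. Cytosines with every CBE column above every control column spanned positions 7 to 22, or 16 bases. Listed adenines above 0 in all 3 replicates of at least 1 arm spanned positions 10 to 16, or 7 bases. This span lay within that of the cytosines, but the 2 rules differ. The rule for adenines was met at A10 and A12 by arms 4, 5 and 6, and at A16 by arm 6 alone. It made no comparison with a control. The spans are bounded by the bases present and listed. No adenine lies between A4 and A10 or beyond A16, and no cytosine lies before C7. A3 and A4 are not listed, so whether the adenine span reaches them is not known. Within the shared stretch from A10 to A16, C14 was still at 100% of the top cytosine in 5 of 6 CBE columns, while A16 stood at 6.37 ± 1.55% of A10 in arm 6 (mean ± SD, n = 3 columns). Past that stretch C19 stood at 70.9% of the top cytosine. The 2 windows came from separate tables and experiments, with different deaminases, so their values were set side by side and not tested against each other.

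Against the other maize targets of the C-to-T table, Zm-TS3 was lower than Zm-TS4 and higher than Zm-TS9 and Zm-TS10. The most edited cytosine averaged 9.82 ± 2.22% at Zm-TS3 (C9), against 15.7 ± 2.04% at Zm-TS4 (C10), 5.45 ± 0.957% at Zm-TS9 (C9) and 1.15 ± 0.572% at Zm-TS10 (C9) (mean ± SD, n = 6 CBE columns). Replicate 1 of CBE5 was listed at 0 at every cytosine of Zm-TS10 and is included in these values. The other CBE columns at its C9 lay between 1.22 and 1.50%. Zm-TS3 minus the other target was -5.84 points for Zm-TS4, 4.37 points for Zm-TS9 and 8.67 points for Zm-TS10. Each difference had 1 sign in 6 of 6 columns (exact sign permutation, adjusted p = 0.0313 for each). The 4 targets of a column were edited together in multiplex, so their values share their source.

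At positions with the same number, compared after seeing the data, C14 of Zm-TS3 averaged 9.77% against 12.2% at C14 of Zm-TS4 (adjusted exact permutation p = 0.156 over 6 pairs, lower in 5 of 6 columns). C19 averaged 6.96% at Zm-TS3 against 2.98% at Zm-TS4 (adjusted exact permutation p = 0.075, higher in 5 of 6 columns). Relative to the top cytosine of its own target, C14 and C19 were higher at Zm-TS3 than at Zm-TS4. C14 stood at 99.5% at Zm-TS3 against 78.4% at Zm-TS4, and C19 stood at 70.9% at Zm-TS3 against 18.5% at Zm-TS4. Each was higher in 6 of 6 columns (exact sign permutation p = 0.0313, not adjusted, the smallest possible). The level at Zm-TS4 did not fall steadily, since C15, the base after its C14, stood at 91.8%. C19 follows T at Zm-TS3 and G at Zm-TS4, and C14 follows T at Zm-TS3 and A at Zm-TS4. The remaining 4 pairs, C7, C9 and C20 with Zm-TS10 and C9 with Zm-TS9, were higher at Zm-TS3 in 6 of 6 columns (adjusted exact permutation p = 0.0469 for each).

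In the A-to-G table the rank of A10 of Zm-TS3 among the most edited adenines of the targets was not the same in every arm. In arm 6, A10 of Zm-TS3 reached 20.03%. In the same arm the other targets were lower, with 11.1% for Zm-TS4 at its most edited adenine, A9, 2.34% for Zm-TS8 at A10 and 2.01% for Zm-TS1 at A8. In arm 4, A10 of Zm-TS3 reached 3.61%, and the same adenines of Zm-TS4, Zm-TS8 and Zm-TS1 reached 15.8, 5.89 and 2.83%. Arm 6 had the highest mean at all 3 adenines of Zm-TS3, and also at A13 of Zm-TS4, with 9.84%, and at A15 of Zm-TS1, with 0.113%. Arm 4 had the highest mean at A9 of Zm-TS4 and at both adenines of Zm-TS8, and arm 5 at the other 4 adenines of Zm-TS1. Over the means of the 7 arms the difference between Zm-TS3 and the others in the most edited adenine was mixed in sign, with 3.73 points for Zm-TS1, -2.19 points for Zm-TS4 and 3.24 points for Zm-TS8, and none passed (adjusted exact sign permutation p = 0.5 for each). With the mean over the listed adenines in place of the most edited one, Zm-TS3 minus Zm-TS4 was -3.38 points, lower in 6 of 7 arms with arm 7 tied at 0 (exact sign permutation p = 0.0313, adjusted p = 0.0938). On this measure arm 6 gave 10.2 ± 0.516% at Zm-TS3 and 10.5 ± 1.61% at Zm-TS4 (mean ± SD, n = 3 columns), so the higher rank of Zm-TS3 over Zm-TS4 in that arm held for the most edited adenine and not for the mean. A10 of Zm-TS3 follows C, A10 of Zm-TS8 follows T and A10 of Zm-TS1 follows A. At this shared position Zm-TS3 averaged 5.20% over the 7 arms, against 1.96% at Zm-TS8, with Zm-TS3 higher in 2 arms and lower in 3, and against 1.08% at Zm-TS1, with Zm-TS3 higher in 3 arms and lower in 2. The differences were 3.24 and 4.12 points (adjusted exact permutation p = 0.5 for each).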

How the data were processed

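Editing at Zm-TS3 was read from a table of A-to-G conversion, which numbers 7 arms, and a table of C-to-T conversion, which holds CBE6, CBE5 and a control. Both tables deposited by the authors give percent of aligned reads, computed with CRISPResso2, and no read was aligned again. Each deposited percent was used as given. The depth behind a percent is not known, because neither table holds read counts, so no interval for counting error or detection floor was set on them. The read counts that the authors deposited for 4 maize libraries without indices were used as shares with Wilson 95% intervals, which cover counting error only. The maize nuclease table, whose rows carry no target name, was not used.

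The arm without an editor in the header of the C-to-T table was taken as the control, and CBE5 and CBE6 were identified through the plasmids of the header and the key of a wheat table. The members, lists and tests were chosen with earlier results of these data known. Every adenine and cytosine listed for Zm-TS3 is named, and of other maize targets the most edited position or the position with the same number. All tests were two-sided permutation tests, exact except for the Kruskal-Wallis statistic over the 7 arms and the rank sum of pooled points, which were permuted with 100000 resamples. P-values given as adjusted were adjusted by Benjamini-Hochberg over all listed positions of a table, or over the pairs of a family. Those for CBE6 against CBE5, for single pairs of arms and for relative levels were not adjusted. Intervals of CBE6 minus CBE5 are 95% intervals from the SD of 3 columns each. The code was tested on simulated data. Alternatives were log2 of percent with 0.1 added, replicate blocks, other summaries of a target and leaving out each replicate. The tools were SciPy 1.17.1 and NumPy 2.4.6 under Python 3.11.15.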

Additional observations from a re-analysis of the deposited data

Results flagged for a closer look

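The sign of the difference between A10 of Zm-TS3 and the most edited adenine of another target changed between arms at Zm-TS4, Zm-TS8 and Zm-TS1. A10 of Zm-TS3 minus A9 of Zm-TS4 was -12.2 points in arm 4 (-12.23, -11.41 and -12.90 by column), -0.25 points in arm 5 (1.99, -0.47 and -2.27) and 8.97 points in arm 6 (7.75, 11.86 and 7.29). A10 of Zm-TS3 minus A10 of Zm-TS8 was -2.28 points in arm 4 and 17.7 points in arm 6, with 1 sign in all 3 columns of each arm. A10 of Zm-TS3 minus A8 of Zm-TS1 was -0.43 points in arm 2 and -0.78 points in arm 3. It was 8.51 points in arm 5 and 18.0 points in arm 6, and the columns of arm 4 were mixed in sign (-0.46, 1.18 and 1.62 points). Against A13 of Zm-TS4, which is higher in arm 6 than in arm 4 as A10 of Zm-TS3 is, the difference was -2.44 points in arm 4 and 10.2 points in arm 6. With the mean over the listed adenines, Zm-TS3 minus Zm-TS4 was -9.63 points in arm 4, -5.83 points in arm 5 and -0.23 points in arm 6, where the columns were mixed in sign. These differences between arms were not tested.

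Deletions were seen at the Zm-TS3 amplicon in the 4 maize libraries without indices, which enter no comparison because their arms are not stated. They were found in 296 of 649825, 318 of 680418, 223 of 555640 and 262 of 606517 reads. The shares were 0.0456% (Wilson 95% interval 0.0406 to 0.0510%), 0.0467% (0.0419 to 0.0522%), 0.0401% (0.0352 to 0.0458%) and 0.0432% (0.0383 to 0.0488%). The intervals cover counting error only, and a count of 0 would allow up to 0.000441 to 0.000540% of reads. No library without an editor is known among them, so the background of deletions was not measured. The 4 intervals overlapped each other.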

How the results depend on the processing

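All 6 cytosines of Zm-TS3 also passed against the control on the log2 scale. With a replicate block the count was 0 of 6 (smallest exact permutation p = 0.0741, the lowest such a test allows), with CBE6 alone or CBE5 alone it was 0 (smallest p = 0.1), and leaving out each replicate gave 0 in every case (smallest p = 0.133). The 11 pairs of cytosines passed again on the log2 scale and numbered 0 when any 1 replicate was left out (smallest exact permutation p = 0.125). These designs cannot reach the threshold, and no difference of a cytosine from the control changed sign. In the pooled points of all cytosines, CBE6 minus CBE5 as a difference of medians was 0.91 points, opposite in sign to the main result. The rank sum of these points, a different statistic, was lower in CBE6 (permutation p = 0.834). CBE6 minus CBE5 ranged from -1.80 to 0.88 points when each replicate was left out, with 0.88 without replicate 1. With the replicate block it was -0.33 points (exact permutation p = 0.75).

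The same-numbered columns of CBE6 and CBE5 deviated together with r = 0.268 over all cytosines and -0.269 at Zm-TS3, 3 of 6 columns correlated best with their own number, and 5 of 10 pairs of ABE arms exceeded 0.1. The numbers were therefore not taken as pairs. All 3 adenines differed between arms with the block too, and 2 or 3 did when 1 replicate was left out. With 21 columns in place of 7 arm means the order of adenines passed at 3.45 points for A10 minus A12, 4.99 for A10 minus A16 and 1.53 for A12 minus A16. Zm-TS3 against the other C-to-T targets kept its sign without each replicate, at -7.50 to -3.83 points for Zm-TS4, 3.62 to 5.43 for Zm-TS9 and 8.12 to 9.71 for Zm-TS10, none of which could pass (exact permutation p = 0.125). The log2 scale and the mean over listed positions changed none of these calls. The depth behind the percents is unknown, and a value listed at 0 may lie below the smallest value given.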

Other observations

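In the same 4 maize libraries, whose arms are not stated, 43524, 45859, 17716 and 20120 reads of the Zm-TS3 amplicon carried a substitution of any kind. These were 6.70, 6.74, 3.19 and 3.32% of its reads. Libraries 1 and 2 thus held about the same share, as did libraries 3 and 4, at a lower level. Deletion shares lay between 0.0401 and 0.0467% in all 4. Insertions were found in 3, 0, 1 and 0 reads, and their background was not measured. Substitutions include sequencing errors, and which arm or arms each library held was not stated in the sources used here.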
